A study of Mus musculus with 9 samples.

Results

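Type I interferon signals through a short relay, and the levels of its genes were measured by RNA sequencing in 9 subcutaneous LLC tumours of the mouse. The genes were chosen by name as the parts of that relay: the ligand gene Ifnb1, the receptor chains Ifnar1 and Ifnar2, the kinase Tyk2, and the transcription factors Stat2, Irf9 and Irf7. All 7 were found among the 34745 genes of the deposited table, and 6 of them had enough reads to be tested, Ifnb1 being the exception. LLC cells (Lewis lung carcinoma) derive from a lung tumour of the mouse and can be transplanted into C57BL/6 hosts. The hosts were male WT C57BL/6 mice whose age is labelled as 6 to 8 with no unit, and they were randomised when tumours were near 100 mm3. The combination group received BTZ (bortezomib, a drug that blocks the proteasome) at 0.5 mg/kg together with an anti-PDL1 antibody at 10 mg/kg, both intraperitoneally. The second group received the anti-PDL1 antibody alone at 10 mg/kg, and the control group an isotype antibody at the same dose. PDL1 is a surface ligand that restrains T cells. Each group held 3 tumours, and the titles of the control libraries read Blank where the treatment label reads isotype. A group given BTZ alone was not analysed here, so the combination can be set against the antibody alone but an effect of the drug without the antibody cannot be read.

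Interferon-beta and the interferon-alpha proteins bind the receptor chains IFNAR1 and IFNAR2, which carry the kinases TYK2 and JAK1. The kinases phosphorylate STAT2, which works with IRF9 in the complex ISGF3, and ISGF3 enters the nucleus and switches on interferon-stimulated genes through a DNA element called ISRE. IRF7 is both a product of this programme and a factor that drives further interferon-alpha and interferon-beta genes, so it closes a loop from response back to ligand.

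Total counts ran from 18.52 M to 21.51 M reads per tumour (M, 1e+06), and levels are given as CPM (counts per 1e+06 counts, scaled by the TMM method). Each tumour was a piece of bulk tissue, so fewer cells of a type and less RNA per cell cannot be told apart. Several tumours stood apart in composition. The summed level of 10 skeletal muscle genes was 822, 19.1 and 5.31 CPM in BTZ+anti-PDL1 replicates 1, 2 and 3, 1079, 113 and 218 CPM in anti-PDL1 replicates 1, 2 and 3, and 5.93, 7.47 and 2919 CPM in isotype replicates 1, 2 and 3. The summed level of 10 leukocyte genes was 586 CPM in isotype replicate 2 and lay between 985 and 1156 CPM in the other 8 tumours. The label calls the cells lung adenocarcinoma, yet the lung epithelial markers Nkx2-1, Sftpc and Sftpb were at 0 CPM in all 9 tumours, while Krt18, Krt8, Napsa and Cdh1 ran from 56.6 to 113, 3.64 to 26.6, 4.16 to 8.96 and 1.44 to 9.30 CPM. The last of the 9 listed lung and epithelial markers, Krt19 and Epcam, reached at most 3.96 and 0.247 CPM.

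The ligand was close to undetectable. Ifnb1 (chr4:88522025-88522774, minus strand, mm10), which encodes interferon-beta, had 0, 0 and 0 reads in the BTZ+anti-PDL1 tumours, against 2, 0 and 3 reads in the anti-PDL1 tumours and 1, 2 and 0 reads in the isotype tumours. The reads that were found therefore lay in the groups without BTZ, but they were 5 and 3 in all. The 0 reads of 57.43 M in the combination group allow a level of up to 0.0522 CPM (3 counts, counting error only), beside 0.0817 CPM over the anti-PDL1 tumours and 0.0509 CPM over the isotype tumours. A difference in Ifnb1 was not detectable at this depth, and with no filter on low counts edgeR gave BTZ+anti-PDL1 against anti-PDL1 an adjusted p of 0.887. The other ligands of the same receptor and the related type III genes were as scarce. Of 19 such genes, 6 had any read (Ifna7, Ifnz, Ifnab, Ifna13, Ifnl2 and Ifne), with 6 reads in all in the BTZ+anti-PDL1 tumours, 10 in the anti-PDL1 tumours and 8 in the isotype tumours. Plasmacytoid dendritic cells are known for secreting these proteins, and Siglech, a surface receptor that marks them, had 1.35, 0.641 and 1.25 CPM in the BTZ+anti-PDL1 tumours, 1.10, 1.37 and 1.40 CPM in the anti-PDL1 group and 0.262, 0.198 and 0.784 CPM in the isotype tumours. Siglech rested on 4 to 30 reads per tumour. Of the 7 markers listed for these cells, 6 were tested, Siglech included, and they did not all move together. For BTZ+anti-PDL1 against anti-PDL1, 2 of the 6 had a positive log2 fold change and 4 a negative one. The counts were 3 and 3 for BTZ+anti-PDL1 against isotype, and 2 and 4 for anti-PDL1 against isotype. Of these markers, Cox6a2 was highest in the most muscle-rich tumour of each group, at 4.55, 6.10 and 11.2 CPM in BTZ+anti-PDL1 replicate 1, anti-PDL1 replicate 1 and isotype replicate 3. Bst2 is also on the list of interferon-stimulated genes used below.

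The receptor chains were well expressed and differed little between groups. Ifnar1 (chr16:91485238-91507441, plus strand), the signalling chain that binds TYK2, had 80.6, 77.5 and 69.3 CPM in the BTZ+anti-PDL1 tumours, against 79.6, 78.2 and 74.8 CPM in the anti-PDL1 group and 69.8, 66.1 and 76.8 CPM in the isotype tumours. The 3 groups overlapped. Its log2 fold change was -0.03 ± 0.08 (SE) for BTZ+anti-PDL1 against anti-PDL1, with a 95% interval of -0.21 to 0.15 and an edgeR adjusted p of 0.970. Against isotype it was 0.10 in the combination (adjusted p = 0.747) and 0.13 with the antibody alone (adjusted p = 0.807). Ifnar2 (chr16:91372783-91405589, plus strand), the chain with the higher affinity for ligand, lies on the same chromosome and strand as Ifnar1. It had 34.1, 34.5 and 33.9 CPM in the BTZ+anti-PDL1 tumours, against 35.6, 40.2 and 36.4 CPM in the anti-PDL1 group and 37.5, 34.2 and 38.4 CPM in the isotype tumours. All 3 combination tumours lay below all 3 anti-PDL1 tumours, at a log2 fold change of -0.13 ± 0.08 (95% interval -0.31 to 0.05) and an edgeR adjusted p of 0.886. Without anti-PDL1 replicate 2, the highest for Ifnar2, the value was -0.08. Against isotype the combination overlapped, at -0.10 (adjusted p = 0.729), and the antibody alone gave 0.03 (adjusted p = 0.959). Some Ifnar2 reads may belong to Gm21970, a gene on the same strand that shares 315 bases of exon with it and had 53 to 128 reads per tumour.

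The receptor-bound kinase was somewhat higher in the combination. Tyk2 (chr9:21104069-21127346, minus strand) had 72.1, 77.2 and 71.1 CPM in the BTZ+anti-PDL1 tumours, against 67.6, 61.1 and 58.0 CPM in the anti-PDL1 group and 63.1, 52.7 and 56.1 CPM in the isotype tumours. The combination tumours lay above all 6 others, while the anti-PDL1 and isotype tumours overlapped. The log2 fold change was 0.24 ± 0.09 against anti-PDL1 (unadjusted p = 0.0224, edgeR adjusted p = 0.834) and 0.36 ± 0.09 against isotype (unadjusted p = 0.00253, adjusted p = 0.367), so neither passed the threshold over all genes. An antisense transcript, 1700084C06Rik, overlaps 8.07% of the Tyk2 exon bases and had at most 8 reads in any tumour.

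**Figure D1:**
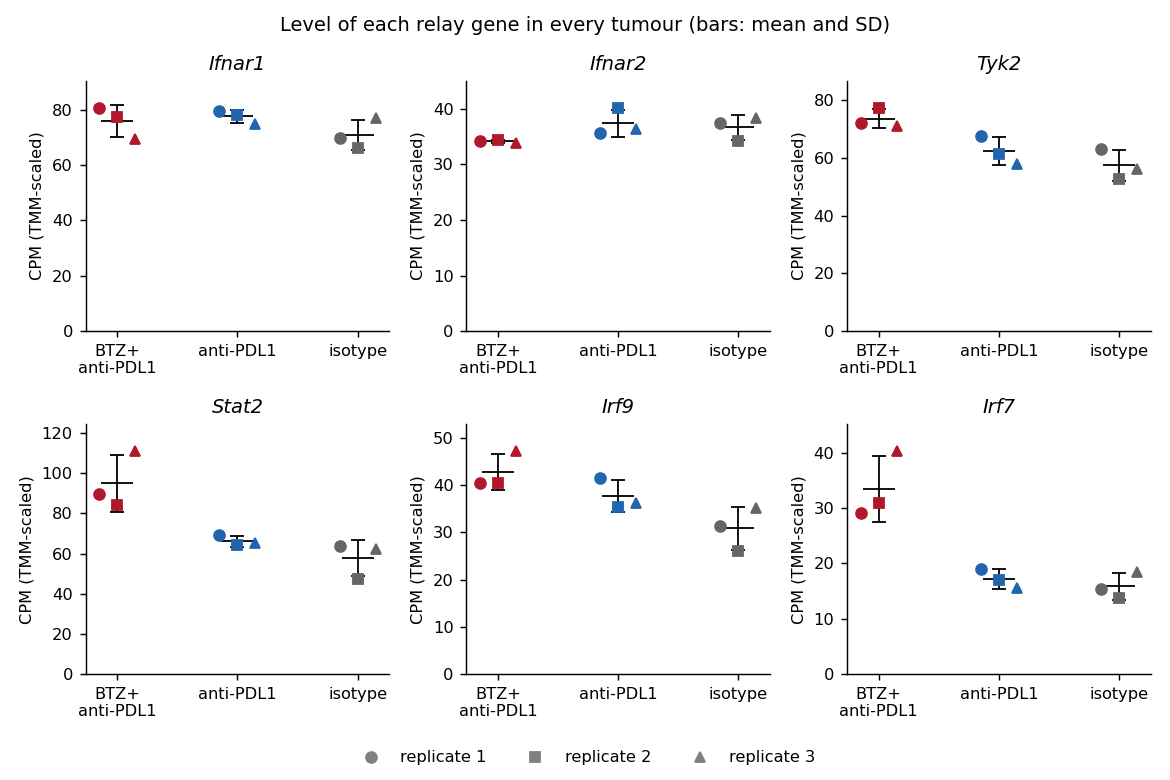
Level of the 6 tested relay genes in each of the 9 tumours (y axis, TMM-scaled CPM from 0; x axis, group; marker shape, replicate; bars, mean and SD of 3 tumours). Stat2, Tyk2 and Irf7 stood higher in all 3 BTZ+anti-PDL1 tumours than in the 6 other tumours, Irf9 overlapped between BTZ+anti-PDL1 and anti-PDL1, and Ifnar1 ran from 66.1 to 80.6 CPM over all 9.

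The start regions of the downstream factors were searched for the element that ISGF3 reads. Windows of 300 bases, from 250 bases before to 50 after the transcript start, were taken from RefSeq (GRCm38.p6, the mm10 build) and searched on both strands for an ISRE core, which is printed in capitals and spelled as 2 runs of GAAA (or of TTTC, on the other strand) with any 2 bases between them. Stat2 is shown for its match, Irf9 (the first of its 2 windows) and Irf7 because neither has one, and Isg15, a ubiquitin-like interferon product, as a target with an ISRE cluster. The windows, 5′ to 3′ on the strand of each gene, are those of Stat2 at chr10:128270248-128270547 (plus), Irf9 at chr14:55603735-55604034 (plus), Irf7 at chr7:141266375-141266674 (minus) and Isg15 at chr4:156200769-156201068 (minus).
Stat2: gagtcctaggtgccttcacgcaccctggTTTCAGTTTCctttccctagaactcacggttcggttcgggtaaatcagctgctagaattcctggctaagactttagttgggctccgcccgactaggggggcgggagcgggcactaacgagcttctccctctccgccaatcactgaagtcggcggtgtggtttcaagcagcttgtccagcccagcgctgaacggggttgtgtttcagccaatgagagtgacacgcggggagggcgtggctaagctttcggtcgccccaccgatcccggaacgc
Irf9: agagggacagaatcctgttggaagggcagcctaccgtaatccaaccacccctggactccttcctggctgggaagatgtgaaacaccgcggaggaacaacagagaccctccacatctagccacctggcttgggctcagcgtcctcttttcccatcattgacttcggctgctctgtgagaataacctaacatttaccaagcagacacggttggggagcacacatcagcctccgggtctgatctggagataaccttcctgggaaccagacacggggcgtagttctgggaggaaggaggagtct
Irf7: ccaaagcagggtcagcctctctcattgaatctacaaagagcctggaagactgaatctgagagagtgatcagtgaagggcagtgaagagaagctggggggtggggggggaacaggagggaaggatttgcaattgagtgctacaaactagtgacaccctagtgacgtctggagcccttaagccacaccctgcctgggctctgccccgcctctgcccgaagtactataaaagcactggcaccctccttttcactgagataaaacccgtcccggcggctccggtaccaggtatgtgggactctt
Isg15: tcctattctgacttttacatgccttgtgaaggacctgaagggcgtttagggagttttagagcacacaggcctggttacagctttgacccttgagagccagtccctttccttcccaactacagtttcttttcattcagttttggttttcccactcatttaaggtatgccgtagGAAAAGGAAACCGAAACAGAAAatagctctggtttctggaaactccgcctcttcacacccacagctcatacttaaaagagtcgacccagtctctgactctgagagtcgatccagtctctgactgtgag
The Stat2 match, TTTCAGTTTC, begins 222 bases before the start, and in Isg15 3 overlapping matches run together. All 7 relay genes had a window, and Stat2 was the only one of the 7 with an ISRE match. Over all 27025 gene symbols with a window, 3.99% had a match in any window, and 3.44% of all 32851 windows held one. A gamma-activated site spelled TTCNNNGAA, another element of interferon-responsive promoters, was found in the windows of Ifnar1 (TTCACGGAA) and Ifnar2 (TTCCTGGAA), beside 9.55% of all gene symbols and 8.30% of all windows. For 30 interferon-stimulated genes, 21 had a window and 11 of these held an ISRE match, beside the 3.99% of all gene symbols. A missing match says only that these letters are not within this window of the start. Both Irf9 windows (the second at chr14:55604329-55604628) lie inside the gene span of the deposited table, which begins at 55603571. For Irf9 the bases before that start were thus not searched.

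Both ISGF3 genes among the relay genes, Stat2 and Irf9, had their highest group mean in the combination. Stat2 (chr10:128270576-128292849, plus strand), which contributes the main activation domain, had 89.6, 84.3 and 111 CPM in the BTZ+anti-PDL1 tumours, against 69.2, 64.1 and 65.1 CPM in the anti-PDL1 group and 63.9, 47.5 and 62.4 CPM in the isotype tumours. The 3 groups did not overlap at any point, and BTZ+anti-PDL1 replicate 3 was highest. Means were 94.96 ± 14.1 CPM, 66.1 ± 2.66 CPM and 57.9 ± 9.05 CPM in the same order of groups (SD, n = 3 tumours each). The log2 fold change was 0.52 ± 0.13 (SE) against anti-PDL1, with a 95% interval of 0.23 to 0.81 and an edgeR adjusted p of 0.606. Against isotype it was 0.71 ± 0.13 (adjusted p = 0.193), which DESeq2 called (adjusted p = 0.000579) and edgeR did not. With the antibody alone against isotype it was 0.19 ± 0.13 (adjusted p = 0.820).

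Irf9 (chr14:55603571-55610030, plus strand), the subunit that recognises the ISRE, had 40.5, 40.5 and 47.2 CPM in the BTZ+anti-PDL1 tumours, against 41.5, 35.4 and 36.2 CPM in the anti-PDL1 group and 31.3, 26.1 and 35.2 CPM in the isotype tumours. The combination overlapped the antibody alone, and all 6 tumours that had received anti-PDL1 lay above all 3 isotype tumours. The log2 fold change was 0.18 ± 0.12 for BTZ+anti-PDL1 against anti-PDL1 (edgeR adjusted p = 0.886) and 0.47 ± 0.12 against isotype (adjusted p = 0.427). Without BTZ+anti-PDL1 replicate 3, the highest for Irf9, the first of these was 0.11. For anti-PDL1 against isotype it was 0.29 ± 0.12, with an unadjusted p of 0.0408 and an adjusted p of 0.763. This value rests in part on isotype replicate 2, the leukocyte-poor tumour and the lowest for Irf9, since it was 0.19 without that tumour. Irf9 shares 123 exon bases (2.28% of its own) with Rnf31 on the same strand, which had 690 to 930 reads per tumour.

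Irf7 (chr7:141262706-141266481, minus strand) gave the largest log2 fold change among the relay genes in both comparisons of the combination. It had 29.0, 31.0 and 40.3 CPM in the BTZ+anti-PDL1 tumours, against 19.1, 17.0 and 15.6 CPM in the anti-PDL1 group and 15.3, 13.8 and 18.5 CPM in the isotype tumours. Every combination tumour lay above every other tumour, and the anti-PDL1 and isotype tumours overlapped. Means were 33.4 ± 6.01 CPM, 17.2 ± 1.74 CPM and 15.9 ± 2.42 CPM in the same order (SD, n = 3 each). The log2 fold change was 0.96 ± 0.16 against anti-PDL1, a 1.94-fold difference with a 95% interval of 0.60 to 1.31 on the log2 scale. Its unadjusted p was 0.000142, edgeR's adjusted p over 14506 genes was 0.293, and DESeq2's was 9.00e-05. Against isotype the log2 fold change was 1.08 ± 0.16, with an edgeR adjusted p of 0.106 and a DESeq2 adjusted p of 2.53e-06. For the antibody alone against isotype it was 0.12 ± 0.16 (edgeR adjusted p = 0.895). The call on Irf7 thus depends on the tool, while its direction was the same with both.

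A ratio inside each library, which needs no scaling between libraries, also placed the combination tumours above the others for Irf7. For every 100 reads of Ifnar1 there were 36.0, 40.0 and 58.1 reads of Irf7 in the BTZ+anti-PDL1 tumours, 23.9, 21.7 and 20.8 in the anti-PDL1 tumours and 21.9, 20.8 and 24.1 in the isotype tumours. The 6 tumours without BTZ lay within a narrow band, and all 3 combination tumours lay above it. By the same ratio all 3 also lay above the others for Stat2. Tyk2 no longer stood apart, at 89.4 in BTZ+anti-PDL1 replicate 1 and 90.4 in isotype replicate 1. Irf9 overlapped, at 50.2 in BTZ+anti-PDL1 replicate 1 and 52.1 in anti-PDL1 replicate 1. For Ifnar2 the combination overlapped the anti-PDL1 tumours and lay below the isotype tumours. This ratio was chosen after the values were seen and is a description. Irf7 overlaps Phrf1 on the opposite strand by 45 exon bases (1.19% of those of Irf7), and without a known strand setting reads from that stretch cannot be told apart. Phrf1 had 1169 to 1681 reads per tumour, more than the 278 to 774 reads of Irf7.

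Set side by side, the log2 fold changes of BTZ+anti-PDL1 against anti-PDL1 ran from -0.13 for Ifnar2 to 0.96 for Irf7. In that comparison 0 of the 6 tested genes were called by edgeR at an adjusted p under 0.05, beside 0.0138% of all genes tested, and 1 (Irf7) was called higher by DESeq2, beside 0.305%. At an unadjusted p under 0.05, 3 of the 6 were higher (Tyk2, Stat2 and Irf7), beside 3.15% of all genes. The groups did not overlap in the higher direction for the same 3 genes, beside 7.33% of all genes, and in the lower direction for Ifnar2, beside 6.99%. The median of the 6 log2 fold changes was 0.21, against 0.00 over all genes tested. The relay genes were chosen with earlier results of these data known, so such shares are a description.

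For BTZ+anti-PDL1 against isotype, edgeR again called 0 of 6 (beside 0.00689% of all genes), and DESeq2 called Stat2 and Irf7 higher (beside 0.450%). Tyk2, Stat2, Irf9 and Irf7 were higher at an unadjusted p under 0.05, beside 4.42% of all genes, and these same 4 genes did not overlap between groups, beside 6.96%. The median was 0.41, against 0.00 over all genes. For anti-PDL1 against isotype, edgeR and DESeq2 called 0 of 6 (beside 0.0138% and 0.104% of all genes). Irf9 alone was higher at an unadjusted p under 0.05, beside 3.01%, and Stat2 and Irf9 did not overlap, beside 6.08%. The median there was 0.12, against 0.00 over all genes. The 3 comparisons share groups, so their values are not independent of each other.

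**Figure D2:**
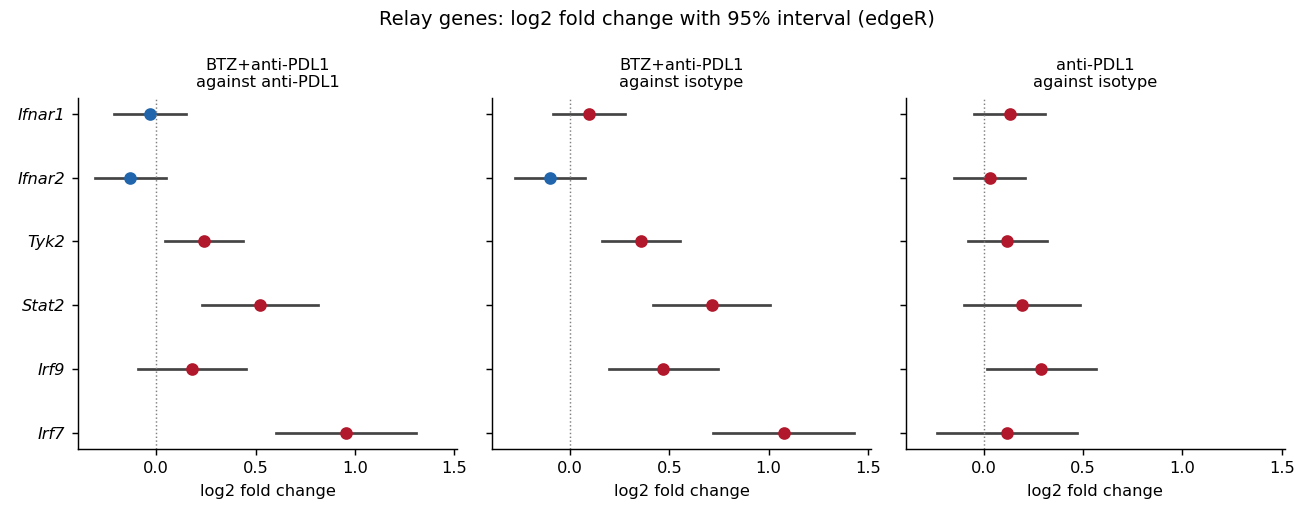
Log2 fold change (x axis) of each tested relay gene with its 95% interval from edgeR, for BTZ+anti-PDL1 against anti-PDL1, BTZ+anti-PDL1 against isotype and anti-PDL1 against isotype (red, positive; blue, negative). In the combination the values lay near 0 for the receptor chains, at -0.03 and -0.13 against anti-PDL1, and reached 0.52 for Stat2 and 0.96 for Irf7.

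Composition differed with some of these values. The leukocyte-poor isotype replicate 2 was the lowest tumour for Ifnar1, Tyk2, Stat2, Irf9 and Irf7. Without it, the log2 fold change of BTZ+anti-PDL1 against isotype was 0.99 for Irf7, 0.59 for Stat2, 0.37 for Irf9 and 0.31 for Tyk2, and that of anti-PDL1 against isotype was 0.07 for Stat2, 0.07 for Tyk2 and 0.03 for Irf7. The summed leukocyte level was 1156, 1129 and 1063 CPM in the BTZ+anti-PDL1 tumours and 1156, 1082 and 1136 CPM in the anti-PDL1 tumours, so those groups overlapped in it. Summed T cell markers (5 genes) were 16.2, 9.72 and 16.7 CPM in the BTZ+anti-PDL1 tumours, 10.9, 12.8 and 9.41 CPM in the anti-PDL1 group and 8.13, 1.44 and 11.7 CPM in the isotype tumours, and their part in the results was not tested. Summed neutrophil markers (5 genes) were 46.4, 32.4 and 63.1 CPM in the BTZ+anti-PDL1 tumours, below the 72.9, 70.3 and 96.5 CPM of the anti-PDL1 tumours, beside 69.6, 44.7 and 103 CPM in the isotype tumours. Summed macrophage markers (5 genes) were 858, 859 and 808 CPM in the BTZ+anti-PDL1 tumours, also below the anti-PDL1 tumours at 880, 1095 and 970 CPM, beside 691, 522 and 977 CPM in the isotype tumours. Natural killer markers (4 genes) summed to 9.86, 6.84 and 8.79 CPM in the BTZ+anti-PDL1 tumours, 7.30, 7.71 and 6.79 CPM in the anti-PDL1 group and 4.36, 3.12 and 6.59 CPM in the isotype tumours. The part of these cell types in the relay values was likewise not tested. Without the most muscle-rich tumour of each group, the log2 fold change of BTZ+anti-PDL1 against anti-PDL1 was 1.13 for Irf7, 0.59 for Stat2, 0.32 for Tyk2 and 0.29 for Irf9.

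Among the partners and brakes of the relay, 2 genes stood apart. Of 12 such genes, all tested, edgeR called 0 in each comparison. Over all genes it called 0.0138% for BTZ+anti-PDL1 against anti-PDL1, 0.00689% for BTZ+anti-PDL1 against isotype and 0.0138% for anti-PDL1 against isotype. In BTZ+anti-PDL1 against anti-PDL1, DESeq2 called Usp18 and Isg15 higher (beside 0.305% of all genes), and at an unadjusted p under 0.05 these 2 genes were higher (beside 3.15%) and Pias1 was lower (beside 2.67%). The same 2 genes were higher by DESeq2 (beside 0.450%) and at an unadjusted p under 0.05 (beside 4.42%) in BTZ+anti-PDL1 against isotype. For anti-PDL1 against isotype the counts were 0 by DESeq2 (beside 0.104%) and 1 higher, Pias1, at an unadjusted p under 0.05 (beside 3.01%). Usp18, a protease that removes ISG15 and also blocks the receptor at IFNAR2, had 15.6, 11.1 and 16.1 CPM in the BTZ+anti-PDL1 tumours, against 8.80, 6.65 and 7.54 CPM in the anti-PDL1 group and 7.08, 6.93 and 6.74 CPM in the isotype tumours. The combination tumours lay above all others, at a log2 fold change of 0.89 ± 0.17 against anti-PDL1 (edgeR adjusted p = 0.306, DESeq2 adjusted p = 0.00445) and 1.04 ± 0.17 against isotype (edgeR adjusted p = 0.155).

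Isg15, whose window is printed above with its ISRE cluster, had 24.9, 18.5 and 26.7 CPM in the BTZ+anti-PDL1 tumours, against 10.4, 11.0 and 9.32 CPM in the anti-PDL1 group and 12.2, 7.87 and 14.0 CPM in the isotype tumours. Again no combination tumour overlapped another group. Its log2 fold change was 1.19 ± 0.21 against anti-PDL1 (edgeR adjusted p = 0.293, DESeq2 adjusted p = 0.000345) and 1.04 ± 0.21 against isotype (edgeR adjusted p = 0.265), while the antibody alone gave -0.15 ± 0.21 against isotype (edgeR adjusted p = 0.907).

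Jak1, the kinase on IFNAR2, was not called by edgeR or DESeq2. It had 314, 310 and 326 CPM in the BTZ+anti-PDL1 tumours, against 314, 359 and 343 CPM in the anti-PDL1 group and 344, 341 and 337 CPM in the isotype tumours, a log2 fold change of -0.10 ± 0.07 against anti-PDL1 (edgeR adjusted p = 0.886). All 3 combination tumours lay below all 3 isotype tumours. With 1 tumour left out, the log2 fold change of Jak1 against isotype ran from -0.12 to -0.09 (edgeR adjusted p of 0.588 to 0.935).

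Among the suppressors and phosphatases, Socs1 and Socs3, which block cytokine receptors and their kinases, had log2 fold changes of 0.16 and 0.02 for BTZ+anti-PDL1 against anti-PDL1. The phosphatase genes Ptpn1, Ptpn2, Ptpn6 and Ptpn11 lay between -0.03 and 0.01, and Cbl and Btrc, which code for ubiquitin ligase subunits, were at -0.17 and 0.01. The Cbl value was -0.06 without BTZ+anti-PDL1 replicate 1 and -0.34 without BTZ+anti-PDL1 replicate 2. The lowest edgeR adjusted p among these 8 in that comparison was 0.886. Pias1, a SUMO ligase, had a log2 fold change of -0.16 ± 0.07 for BTZ+anti-PDL1 against anti-PDL1 (edgeR adjusted p = 0.851) and of 0.22 ± 0.07 for anti-PDL1 against isotype (adjusted p = 0.763). Ptpn6, a phosphatase of blood cells, was 0.46 ± 0.21 for BTZ+anti-PDL1 against isotype and 0.45 ± 0.21 for the antibody alone (adjusted p = 0.586 and 0.763), and it was lowest in the leukocyte-poor isotype replicate 2, at 31.7 CPM. Without that tumour the Ptpn6 values were 0.23 and 0.22, and without isotype replicate 3 they were 0.66 and 0.65.

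**Figure D3:**
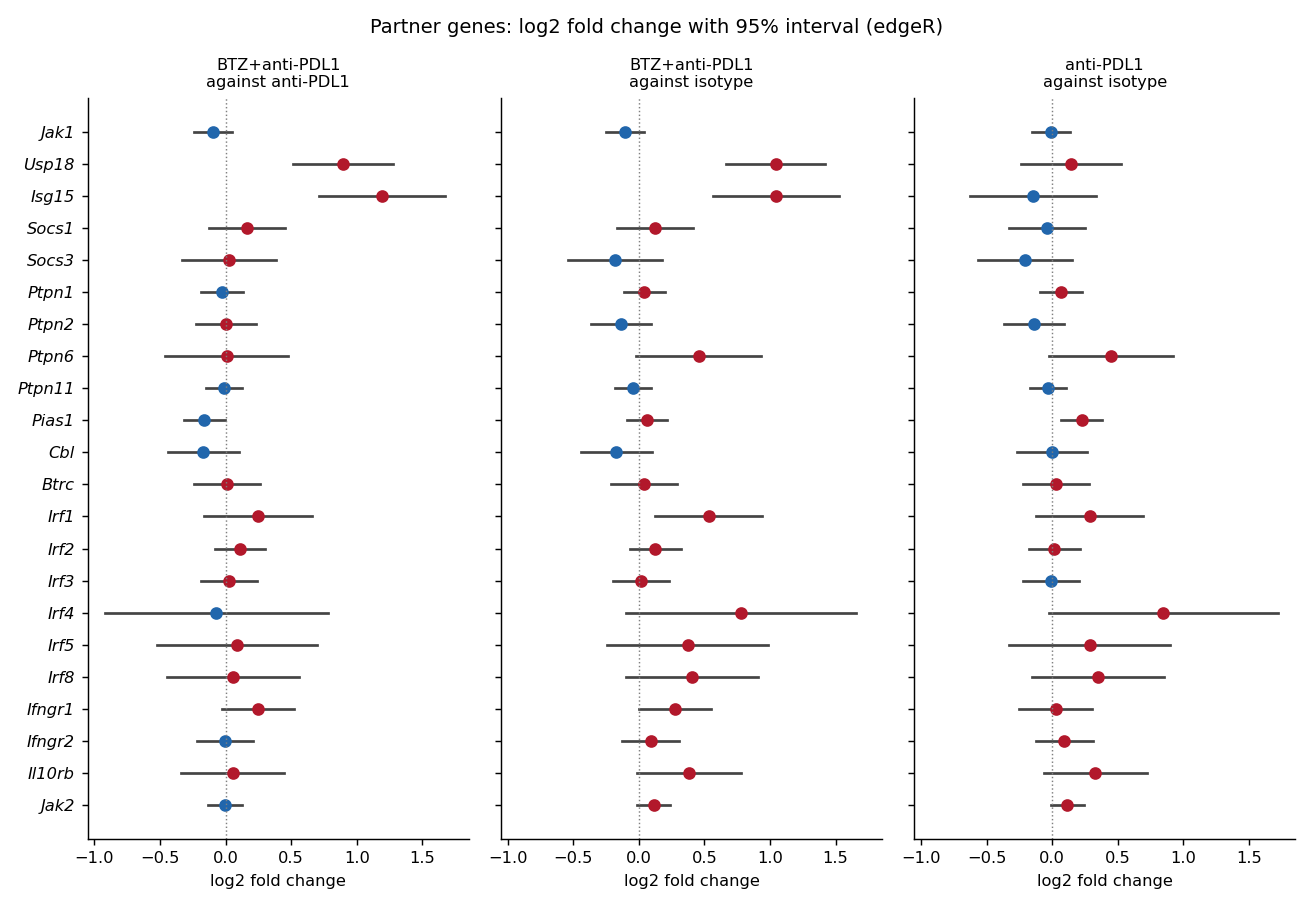
Log2 fold change (x axis) with 95% interval from edgeR for the 12 partners and brakes of the relay, 6 other interferon regulatory factors and 4 genes of other interferon receptors, in the same 3 comparisons (red, positive; blue, negative). In BTZ+anti-PDL1 against anti-PDL1, Isg15 (1.19) and Usp18 (0.89) stood apart from the 10 other partners, which lay between -0.17 and 0.16.

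None of the genes that feed the loop through IRF7 and related factors was called. Of 14 interferon regulatory factors and upstream kinases or adaptors, all were tested, and edgeR and DESeq2 called 0 in each comparison. Over all genes edgeR called 0.0138% for BTZ+anti-PDL1 against anti-PDL1, 0.00689% for BTZ+anti-PDL1 against isotype and 0.0138% for anti-PDL1 against isotype. In the same order DESeq2 called 0.305% (higher), 0.450% (higher) and 0.104% (either direction). At such shares 0 of 14 says little about these genes. Irf1, a factor induced by interferons, had 78.0, 99.4 and 113 CPM in the BTZ+anti-PDL1 tumours, against 71.5, 86.1 and 86.9 CPM in the anti-PDL1 group and 66.5, 52.4 and 81.8 CPM in the isotype tumours, with overlap between all groups. Its log2 fold change against isotype was 0.53 (unadjusted p = 0.0169, edgeR adjusted p = 0.540). It was the 1 gene of the 14 under an unadjusted p of 0.05 in that comparison, beside 4.42% of all genes higher. In BTZ+anti-PDL1 against anti-PDL1 the 1 such gene was Traf6, an adaptor ligase, at -0.30 (unadjusted p = 0.0367, edgeR adjusted p = 0.849), beside 2.67% of all genes lower. For anti-PDL1 against isotype there were 0, beside 3.01% of all genes higher. Irf3, which starts interferon-beta transcription, had 49.0, 41.5 and 43.3 CPM in the BTZ+anti-PDL1 tumours, 44.8, 46.1 and 40.6 CPM in the anti-PDL1 group and 44.2, 40.3 and 47.6 CPM in the isotype tumours. Of the receptor and kinase genes of the other interferon types, 4 were tested (Ifngr1, Ifngr2, Il10rb and Jak2, with Ifnlr1 under the filter), and in each comparison edgeR and DESeq2 called 0 and 0 had an unadjusted p under 0.05. Beside the shares of all genes given above, 0 of 4 says little.

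A list of interferon-stimulated genes was examined next, and whether ISGF3 drove them in these tumours was not tested. Of 30 interferon-stimulated genes, 30 had a positive log2 fold change for BTZ+anti-PDL1 against anti-PDL1, beside 50.8% of all genes, and 22 did not overlap between groups, beside 7.33% of all genes. At an unadjusted p under 0.05, 20 were higher (beside 3.15%), DESeq2 called 9 higher (beside 0.305%), and edgeR called 0 (beside 0.0138%). The median log2 fold change was 0.59 for the 30 genes, set beside 0.21 for the 6 relay genes. The list was chosen with earlier results of these data known, so these shares are a description. Ifit3, an antiviral protein gene that may share reads with its near copy Ifit3b, had 33.5, 31.0 and 36.5 CPM in the BTZ+anti-PDL1 tumours, against 17.8, 15.0 and 16.4 CPM in the anti-PDL1 group and 17.5, 12.2 and 12.6 CPM in the isotype tumours. The combination tumours stood clear of all others, at 1.04 ± 0.15 against anti-PDL1 (edgeR adjusted p = 0.177) and 1.26 ± 0.15 against isotype (edgeR adjusted p = 0.0511). Mx1, an antiviral GTPase gene, had 15.1, 16.0 and 20.5 CPM in the BTZ+anti-PDL1 tumours, against 7.40, 5.23 and 7.73 CPM in the anti-PDL1 group and 5.14, 4.16 and 7.95 CPM in the isotype tumours. For anti-PDL1 against isotype the 30 genes had a median of 0.22, with 2 higher at an unadjusted p under 0.05 (beside 3.01% of all genes) and 1, Lgals3bp, called by DESeq2 (beside 0.104%; log2 fold change 0.63, edgeR adjusted p = 0.763).

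The relay genes were also set against the interferon-stimulated genes across tumours. The interferon score averages the 30 genes of a tumour on the log2 CPM scale, each gene centred on its mean level, and was 0.41, 0.32 and 0.74 in the BTZ+anti-PDL1 tumours, against -0.07, -0.19 and -0.17 in the anti-PDL1 tumours and -0.34, -0.64 and -0.07 in the isotype tumours. The combination tumours formed a cluster of their own, so no correlation over all 9 is given. Over the 6 tumours without BTZ, Irf7 had a Pearson r of 0.91 (exact permutation p = 0.00417, adjusted over 12 relations 0.0250) and a Spearman rho of 0.94 (p = 0.0167, adjusted 0.1). Without isotype replicates 1 and 2, the tumours farthest from the median score, r for Irf7 was 0.87 over 4 tumours. For Irf9 r was 0.94 (exact permutation p = 0.00972, adjusted 0.0263) with rho 0.83 (p = 0.0583, adjusted 0.171), and for Ifnar1 r was also 0.94 with the same p-values and the same rho. Without those isotype tumours r was 0.52 for Irf9 and 0.42 for Ifnar1, so both relations rest on them. Stat2 had r 0.90 (exact permutation p = 0.0431, adjusted 0.0861) with rho 0.66 (p = 0.175, adjusted 0.266), and 0.26 without them. Tyk2 had r 0.57 (exact permutation p = 0.253, adjusted 0.303) with rho 0.43 (p = 0.419, adjusted 0.503), and Ifnar2 had r 0.53 (exact permutation p = 0.279, adjusted 0.305) with rho 0.14 (p = 0.803, adjusted 0.810). Without the same isotype tumours r was 0.24 for Tyk2 and -0.46 for Ifnar2. The smallest p that 6 tumours allow is 0.00278. Pairings were permuted across the anti-PDL1 and isotype groups, so these p-values do not separate a group difference from variation within groups.

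Removing the group means brought all 9 tumours back in. The r of these deviations with the score was 0.95 for Irf9, 0.91 for Stat2 and 0.90 for Irf7, against 0.36 for Ifnar2, 0.17 for Ifnar1 and 0.14 for Tyk2. The Irf9, Stat2 and Irf7 deviations, pooled over the 3 groups, thus rose and fell with the score, and the differences between these r values were not tested. No p-value was computed for these pooled deviations. The r values were not recomputed without single tumours, the leukocyte-poor isotype replicate 2 included, so how far they rest on it is not known.

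The leukocyte score, built in the same way from 10 pan-leukocyte genes, gave a different order over the 9 tumours. Its p-values too come from permutation across the groups. Ifnar1 had r 0.77 (exact permutation p = 0.00319, adjusted 0.0250) with rho 0.83 (p = 0.00827, adjusted 0.0992), and Irf9 had r 0.79 (exact permutation p = 0.0109, adjusted 0.0263) with rho 0.62 (p = 0.0857, adjusted 0.171). Without isotype replicates 1 and 2, r was 0.54 for Ifnar1 and 0.02 for Irf9, so the relation for Irf9 rests on those tumours. Irf7 had r 0.44 (exact permutation p = 0.207, adjusted 0.276) with rho 0.45 (p = 0.230, adjusted 0.306), and -0.25 without them. Stat2, Tyk2 and Ifnar2 had r 0.62, 0.58 and 0.24, with exact permutation p-values of 0.112, 0.0741 and 0.628 (adjusted 0.168, 0.127 and 0.628). Their rho was 0.63, 0.50 and -0.10, with exact permutation p-values of 0.0760, 0.178 and 0.810 (adjusted 0.171, 0.266 and 0.810). Without isotype replicates 1 and 2, r was -0.10 for Stat2, 0.13 for Tyk2 and -0.26 for Ifnar2. Without isotype replicate 2 alone, r was 0.17 for Stat2, 0.18 for Tyk2, 0.51 for Irf9 and 0.16 for Irf7. With group means removed, r with the leukocyte score was 0.73 for Irf9, 0.69 for Stat2, 0.64 for Ifnar1, 0.61 for Ifnar2, 0.49 for Tyk2 and 0.44 for Irf7.

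**Figure D4:**
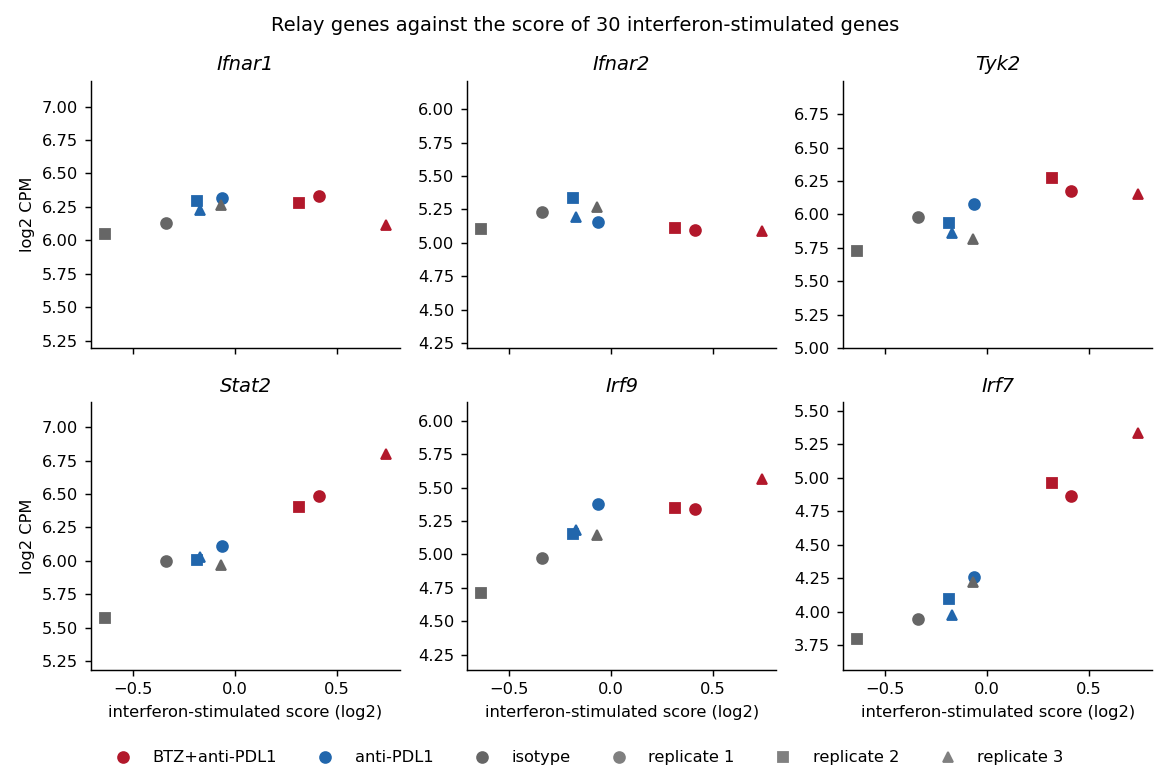
Log2 CPM of the relay genes against the interferon score (x axis, mean log2 CPM of 30 interferon-stimulated genes relative to the 9 tumours), 1 point per tumour, coloured by group and shaped by replicate, with y axes of equal span that do not start at 0. The BTZ+anti-PDL1 tumours lie at scores of 0.32 to 0.74, right of the others, and all 3 stand above the 6 other tumours for Irf7 and Stat2 but not for Ifnar1 or Ifnar2.

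Among the relay genes themselves, the closest profiles over the 9 tumours were those of Stat2 and Irf7 (r 0.95) and of Stat2 and Irf9 (r 0.91), while Ifnar2 ran against Irf7 (r -0.54). These are descriptions over the same 9 libraries and include the group differences. Of 12251 genes searched, the profiles most like Irf7 were Oas1b (r 0.98), Cmpk2 (0.97) and Mx1 (0.96), and those most like Stat2 were Tor3a (0.98), Oas3 (0.97) and Xaf1 (0.97). Irf9 was nearest to Itgax (0.97), an integrin of dendritic cells and macrophages, Spint1 (0.97) and the class I histocompatibility gene H2-D1 (0.97). Tyk2 was nearest to Mif4gd (0.96), B3gat3 (0.95) and the interferon-stimulated Ifit1 (0.95). The receptor chains had other neighbours, C3ar1 (0.96), a complement receptor of myeloid cells, Spin1 (0.94) and Galm (0.94) for Ifnar1, and Pdgfrb (0.91), a receptor of perivascular and stromal cells, Ykt6 (0.90) and Cpeb2 (0.90) for Ifnar2.

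Levels can be compared between genes only per length, as RPKM (CPM per kilobase of exon, from TMM-scaled counts and the exon lengths of GENCODE M21). By the median RPKM over the 9 tumours the order was Ifnar1 (12.9), Stat2 (11.0), Ifnar2 (10.7), Tyk2 (9.20), Irf9 (6.73), Irf7 (4.90) and Ifnb1 (0). Neighbours in this order had overlapping ranges, apart from Ifnb1. In the BTZ+anti-PDL1 tumours Stat2 averaged 16.0 ± 2.39 RPKM and Ifnar1 12.8 ± 0.98 RPKM. In the isotype tumours Stat2 averaged 9.78 ± 1.53 RPKM and Ifnar1 11.9 ± 0.92 RPKM (SD, n = 3 each), so by these exon lengths their order was turned round. Irf7 averaged 8.85 ± 1.59 RPKM in the BTZ+anti-PDL1 tumours, 4.56 ± 0.46 RPKM in the anti-PDL1 tumours and 4.20 ± 0.64 RPKM in the isotype tumours. Jak1 stood far above the relay genes at a median of 46.7 RPKM. The order depends on the length used: the deposited FPKM values, whose implied gene length exceeds the longest annotated transcript for 77.1% of 10321 genes, had medians of 14.4 for Stat2, 13.6 for Tyk2, 8.06 for Ifnar1, 5.83 for Ifnar2, 4.19 for Irf9 and 2.94 for Irf7. By FPKM the order of Stat2 and Ifnar1 was not turned round. Stat2 averaged 21.4 and Ifnar1 7.87 in the BTZ+anti-PDL1 tumours, and 12.9 and 7.25 in the isotype tumours.

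**Figure D5:**
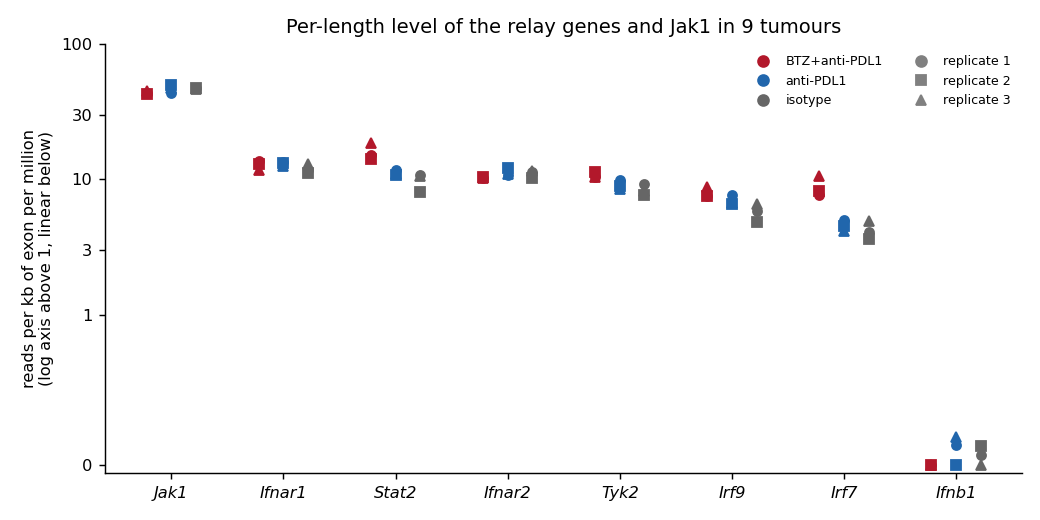
Level per length (RPKM, y axis, logarithmic above 1 and linear below) of the relay genes and Jak1 in each tumour, ordered by median, with tumours coloured by group and shaped by replicate. Jak1 is highest at a median of 46.7 RPKM, Irf7 is the lowest of the tested relay genes at 4.90 RPKM, and the BTZ+anti-PDL1 tumours are the highest for Irf7 and Stat2.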

How the data were processed

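RNA was measured in 9 tumours, 3 per group, with groups and replicate numbers from the labels. The labels do not say that each library came from its own mouse, so p-values measure the spread between these libraries. The authors' deposited table holds a whole-number count per gene and tumour, not normalised, per the file headers. It also holds FPKM values made by the authors. For 10337 genes with at least 100 counts in every tumour, these FPKM values were proportional to count over column total (largest relative deviation 9.28e-06). Per the submitters' processing notes, HISAT2 2.0.4 and StringTie 1.3.3b were used, and mm10 is the build. The counting tool, annotation release and strand setting are not given in the sources used here, so overlapping and antisense genes are uncertain.

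The test was the robust quasi-likelihood F test of edgeR 4.0.16 (R 4.3.3) with TMM scaling. Its model had 3 group means, was fitted to all 9 tumours and kept 6 residual degrees of freedom. A filter (filterByExpr, minimum count 10) left 14506 genes. P-values were Benjamini-Hochberg adjusted over all of them, and a gene was called at an adjusted p under 0.05. The standard error (SE) is the absolute log2 fold change over the square root of F, and its median over genes was 0.138, the precision that this depth and these tumours give. Log2 CPM values used a prior count of 2. The count test was tried on simulated counts with known changes before use. Those counts held no muscle-rich or leukocyte-poor tumours, so the trial does not show how the test performs with such tumours. Correlations used exact two-sided permutation over pairings, across groups, with 12 relations adjusted together. Alternatives were RLE scaling, a fit with no count filter, fits to just the 6 tumours of a comparison, a block for the replicate number, fits without single tumours or the muscle-rich ones, and DESeq2 1.42.0. Limma 3.58.1 (trend) was also run on the FPKM after adding a pseudocount of 1 or 0.1 and taking log2, where at least 3 tumours reached an FPKM of 1.

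The relay genes and all lists were chosen with earlier results of these data known. All relay genes and all partner genes on the list used are given. Some genes are not reported here. From the other lists up to 4 genes with the smallest p in a comparison could be named, with Irf3, Siglech and the composition markers added as background. The genes most like a relay gene are the 3 with the highest Pearson r over the 9 tumours among tested genes with a mean of at least 1 CPM, leaving out predicted loci. Motif matches and promoter windows are from RefSeq, build GRCm38.p6, and gene coordinates are those of the deposited table. Python 3.11.15 was used for these steps.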

Additional observations from a re-analysis of the deposited data

How the results depend on the processing

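The 6 tested relay genes kept their direction in all alternatives run for BTZ+anti-PDL1 against isotype. The exceptions elsewhere were Ifnar1 for BTZ+anti-PDL1 against anti-PDL1 (-0.0794 to 0.0303 when 1 tumour was left out) and Ifnar2 for anti-PDL1 against isotype (-0.0238 to 0.0626). The edgeR count of 0 called relay genes became 1 (Irf7) by DESeq2 for BTZ+anti-PDL1 against anti-PDL1. For BTZ+anti-PDL1 against isotype it became 2 by DESeq2, 1 with no filter (Irf7, adjusted p = 0.0324), and 0 to 1 when 1 tumour was left out (Irf7 without isotype replicate 3, adjusted p = 0.0452). Over all alternatives the adjusted p of Irf7 ran from 2.53e-06 to 0.344 against isotype and from 9.00e-05 to 0.846 against anti-PDL1, and edgeR on only the 6 tumours compared called Isg15 against anti-PDL1 (log2 fold change 1.19, adjusted p = 0.0486).

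Counts of called genes among all genes were small and unstable. For BTZ+anti-PDL1 against anti-PDL1 (2 genes) they were 4 with no filter, 12 with only the 6 tumours compared, 0 without the most muscle-rich tumours, 60 by DESeq2 and 1 to 7 with 1 tumour left out. For BTZ+anti-PDL1 against isotype (1 gene) they were 6 with no filter, 0 with only the 6 tumours compared, 0 without the most muscle-rich tumours, 111 by DESeq2, 3 by limma with either pseudocount, and 0 to 20 with 1 tumour left out, 20 being without isotype replicate 3. For anti-PDL1 against isotype (2 genes) they were 0 without the most muscle-rich tumours, 15 by DESeq2 and 1 to 4 with 1 tumour left out. The causes were not tested. With the replicate number as a block, 1, 0 and 1 genes were called in the same order of comparisons, and 0 relay genes in each. Whether the numbers pair the tumours cannot be told from these values. Deviations of same-numbered tumours correlated at -0.43 to 0.39, and those of differently numbered tumours at -0.42 to 0.58.

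Partner genes whose log2 fold change lay near 0 changed sign. Without the most muscle-rich tumours, anti-PDL1 against isotype gave 0.0345 for Jak1, 0.0188 for Socs1, 0.00326 for Cbl, -0.127 for Btrc and 0.0210 for Isg15. BTZ+anti-PDL1 against anti-PDL1 then gave -0.0806 for Socs3, 0.0346 for Ptpn1 and -0.137 for Ptpn2, and BTZ+anti-PDL1 against isotype -0.0840 for Btrc. By limma with pseudocounts 1 and 0.1, Cbl was 0.00804 and 0.00896 for anti-PDL1 against isotype, and Ptpn11 0.000395 and 0.000436 for BTZ+anti-PDL1 against anti-PDL1. With 1 tumour left out, BTZ+anti-PDL1 against anti-PDL1 gave -0.0546 to 0.124 for Socs3, -0.0587 to 0.0304 for Ptpn1, -0.0983 to 0.0805 for Ptpn2, -0.0355 to 0.0917 for Ptpn6 and -0.00412 to 0.0453 for Btrc. Against isotype the combination gave -0.0838 to 0.00388 for Ptpn11 and -0.0819 to 0.152 for Btrc. For anti-PDL1 against isotype the ranges were -0.0515 to 0.0415 for Jak1, -0.125 to 0.0267 for Socs1, -0.0291 to 0.0388 for Cbl, -0.0954 to 0.137 for Btrc, -0.348 to 0.0318 for Isg15 and -0.0701 to 0.0183 for Ptpn11. The r of Ifnar2 with the leukocyte score was -0.329 without isotype replicate 2 (range to 0.343). For the interferon score relations, which rest on 6 tumours, single tumours were not left out in turn, and r without the 2 tumours farthest from the median score is given with each relation. With 3 tumours a group and a median SE of 0.138, changes of single genes near that size cannot be seen. Far larger ones, such as those of Irf7 and Ifit3 in the combination, also went uncalled in the main edgeR fit. A gene that was not called is therefore not shown to be unchanged.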
